A study of Mus musculus with 8 samples.

Results

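The 34 genes described here carry glucose into the cell, split it through glycolysis, handle the pyruvate and lactate that result, and divert glucose 6-phosphate into the pentose phosphate pathway. They were taken by symbol from a list of 3 genes of uptake, 10 of upper glycolysis, 6 of lower glycolysis, 8 of the lactate and pyruvate steps and 7 of the pentose phosphate pathway. All 34 were found among the 26608 gene symbols that the count files hold, pyruvate kinase under its older symbol Pkm2. The study used FVB mouse embryos of diabetic dams at embryonic day 8.5, and laser microdissection of cryosections gave the neural tube tissue. One group is 4 libraries of open neural tube with normal shape, taken from just in front of closure site 1, the first point of fusion of the neural folds. The other is 4 libraries of protrusions cut from the open neural plate, of which protrusion 1 was labelled as separated and protrusions 2, 3 and 4 as attached. All embryos came from diabetic pregnancies, so the comparison is between protruding and normally shaped tissue under maternal diabetes, and no embryo of a healthy dam entered it. The sources used here do not say how the dams became diabetic or where along the body axis the protrusions lay.

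Glucose enters cells through facilitative transporters and is trapped by hexokinase. Upper glycolysis spends ATP to cut the sugar into triose phosphates, and lower glycolysis regains it and ends in pyruvate. Pyruvate is reduced to lactate and exported with a proton, or enters the mitochondrion, where pyruvate dehydrogenase feeds it to the citric acid cycle unless a pyruvate dehydrogenase kinase switches that enzyme off. The pentose phosphate pathway makes NADPH and the ribose of nucleotides. Early mouse embryos rely heavily on glycolysis before the chorioallantoic placenta supplies oxygen, and high glucose is a known teratogen of the rodent neural tube.

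The libraries held 5668054 to 16655583 reads, so that 3 reads, the number taken as the limit of detection, stood for 0.180 to 0.529 CPM (reads per 1000000 reads of the library). After thinning to the smallest total, 9920 to 11265 genes had a read in the open neural tubes and 14375 to 15537 in the protrusions. An open neural tube library lacked any read for 4.85% to 18.8% of the genes averaging 5 to 20 CPM, and a protrusion library for 0.0915% to 0.549%. Of 10 neural progenitor markers, each had reads in at least 1 library. Msi1, picked after its values were seen, had none in open neural tube. The summed level of the 10 was 2854 to 3472 CPM in open neural tube and 1528 to 2512 CPM in protrusions. Sox11, the most abundant, stood at 1821 to 2746 CPM and at 784 to 1398 CPM, and made up most of the sum in open neural tube. Markers of the primitive streak and axial progenitors, led by T, had a sum of 6.62 to 48.0 CPM in open neural tube and of 309.9 to 1413 CPM in protrusions, lowest in the separated one. Erythroid markers, led by Hba-x, summed to 1.06 to 1010 CPM in open neural tube and 1.00 to 47.1 CPM in protrusions, with Hbb-y and Hba-a2 at 0 throughout. The endothelial list, led by Tek, summed to 8.29 to 177 CPM against 1.58 to 35.5 CPM, the endoderm list, led by Foxa2, to 16.5 to 55.1 CPM against 11.6 to 46.3 CPM, and the paraxial mesoderm and mesenchyme list, led by Aldh1a2, to 245 to 1002 CPM against 517 to 1195 CPM, in that order of groups. Open neural tube 13 stood apart, with Sox2 at 30.9 CPM where the other open neural tubes had 287 to 550 CPM. It had the highest endothelial and mesenchyme sums of its group. Its neural sum of 3015 CPM was within the range of the others, but Sox11 gave 2746 CPM of it. Sox1, Pax6 and Nes were also lowest there of the open neural tubes, at 15.3, 4.92 and 37.8 CPM. Sox11 and Sox4 were highest there, at 2746 and 52.2 CPM. Sox2, Sox1, Pax6, Nes and Sox4 were picked after their values were seen. The part of these differences in the results below was not tested, and fewer cells of a type cannot be told apart from less RNA per cell in such tissue. Protrusions 1 and 2 have titles with a common stem, and no label states that each library is a different embryo. P-values therefore describe the scatter among these 8 libraries, part of which may be technical.

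SAGE reads 1 short tag from each transcript, next to the last CATG before the 3′ end, where the enzyme NlaIII cuts. A level therefore does not grow with the length of the transcript, but a tag that occurs in several genes does not tell which of them it came from. The tags below were predicted as the last CATG of the longest principal transcript and the bases after it, 25 in all, from GENCODE M21 (GRCm38), and are shown for the members whose counts depend on them most and for those the results turn on. Capitals mark the CATG.
Gapdh: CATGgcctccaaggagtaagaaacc
Eno1: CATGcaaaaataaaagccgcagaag
Pdhb: CATGgtatgggcactgcccaggttt
Slc2a3: CATGtcacaa
Aldoc: CATGctaaaaa
Ldha: CATGccaaataaaaccttgaacagt
Pkm2: CATGcaatagagaccagctattatt
Slc16a3: CATGttatggagactcccaaccata
Rpe: CATGacaaagatttgaaattatttg

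Among the 34 members, 32 had a full tag, and the tags of Gapdh, Eno1 and Pdhb occurred on the same strand in at least 1 other annotated gene. The Gapdh tag was found in 7 other genes on that strand, the Eno1 tag in Eno1b and the Pdhb tag in Gm6123. Gapdh and Eno1, glyceraldehyde 3-phosphate dehydrogenase and the ubiquitous enolase, both among the most abundant enzymes of any cell, had 0 reads in all 8 libraries. Pdhb, the beta subunit of pyruvate dehydrogenase, had 324 reads in all 8 libraries together. Over all genes with a full predicted tag, 65.7% of the 1473 whose tag another gene shares were at 0 in every library, against 19.2% of the 15701 whose tag is their own. The rule for counting a tag found in several genes is unknown here, the part of tag sharing in the 0 reads was not tested, and no level is read from them. The last CATG of Slc2a3 lies 10 bases and that of Aldoc 11 bases from the annotated transcript end, so their predicted tags would run into the poly(A) tail. These 2 short tags were not compared with other genes. The predicted tags of Pfkp and Rpe occur on the opposite strand of Pitrm1 and Kansl1l, and whether counting used strand is not stated. The tags of the other 27 members occurred in no other annotated gene.

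**Figure D1:**
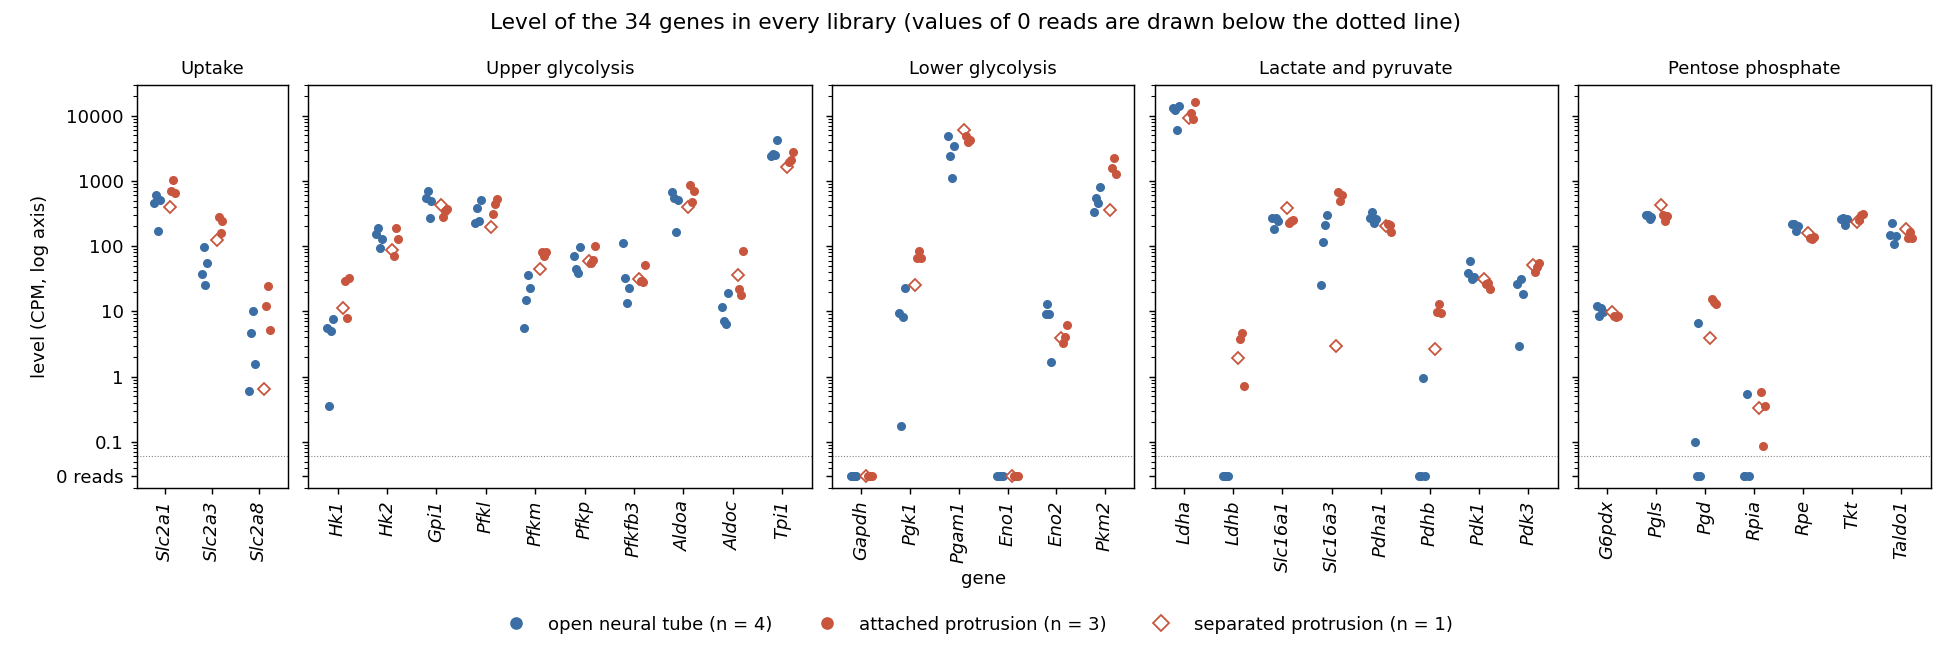
Level of each of the 34 genes in CPM (log axis) in every library, by step, with 4 open neural tubes, 3 attached protrusions and the separated protrusion drawn apart. Ldha stands highest in its step in every library, Gapdh and Eno1 are at 0 reads throughout, and the separated protrusion lies far below the attached ones for Slc16a3.

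Transcripts of the members made up 1.27% to 2.94% of all reads in a library, and Ldha alone gave 40.0% to 55.1% of that. By rank among all genes of a library, Ldha stood between place 1 and place 10, Pgam1 between 11 and 118, Tpi1 between 20 and 68 and Pkm2 between 46 and 556. At the other end, Rpia had 19 reads and Ldhb 98 reads in all 8 libraries together.

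Differences between protrusions and open neural tube were fitted over all genes with edgeR's quasi-likelihood test, and an adjusted p under 0.05 over the 11036 genes tested was required. Of the 34 members 30 passed the filter on low counts, Gapdh, Eno1, Ldhb and Rpia being left out, and 0 of the 30 passed the test, where 0.607% of all genes tested did. An unadjusted p under 0.05 was reached by 12 of the 30, against 15.3% of all genes tested. Of these, 7 were higher in protrusions (7.02% of all genes tested) and 5 lower (8.33%). By DESeq2 6 of the 30 passed (7.2% of all genes tested), by limma-voom 2 (3.35%) and by limma-voom with sample weights 2 (1.71%), Slc2a3 and Pdhb under each of these and Aldoc, Pfkm, Pgk1 and Rpe under DESeq2 too. Pdhb passed the filter on low counts through the protrusions alone, reaching its level of 1.198 CPM in 0 of 4 open neural tubes, so its place in these counts and in those of groups that do not overlap supports nothing. The log2 fold change was above 0 in 19 of the 30 members and in 53.7% of all genes tested, with medians of 0.09 and 0.08. In 6 members every protrusion stood above every open neural tube (8.84% of all genes tested), and in 3 every protrusion stood below (4.55%). For Pdk1, counted among those 3, protrusion 1 at 30.9204 CPM and open neural tube 13 at 30.9206 CPM were in effect tied.

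These 9 members differed in level. Of 17 tested members with a mean of at least 100 CPM, Slc2a3 stood higher in all protrusions (8.87% of all genes at that level) and Pdha1 and Rpe lower (12.9%). Of 13 members under 100 CPM, Hk1, Pfkm, Pgk1, Pdhb and Pdk3 stood higher in all protrusions (8.84% of all genes at that level) and Pdk1 lower (2.81%). In that lower range 13.8% of all open neural tube values were at 0 and 0.334% of protrusion values, whereas at 100 CPM or more the figures were 0.0132% and 0%. The part of that gap in the 5 low-level members was not tested.

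**Figure D2:**
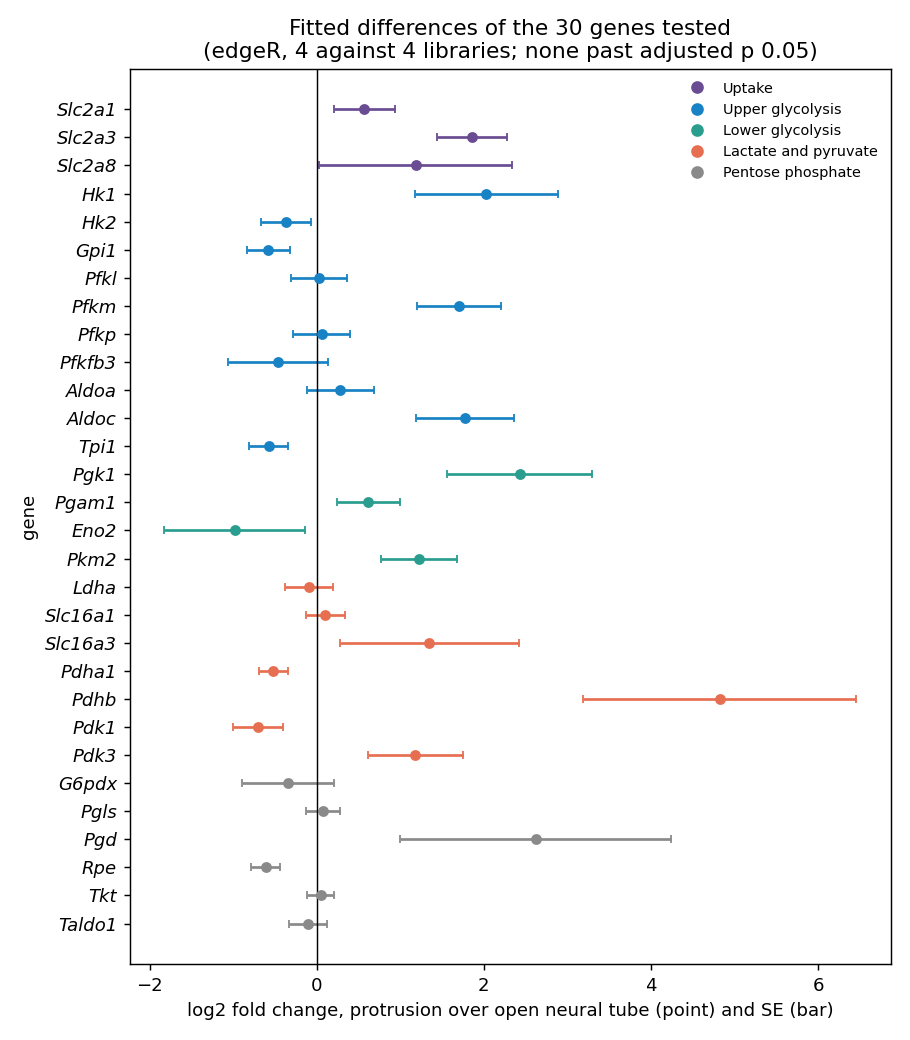
Fitted log2 fold change of each of the 30 tested members in protrusions over open neural tube, with its standard error, coloured by step. The points run from −0.98 (Eno2) to 4.82 (Pdhb), the standard errors are widest for genes with few reads, and no gene passed an adjusted p of 0.05.

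Of the glucose transporters, Slc2a3 stood higher in every protrusion than in any open neural tube. Slc2a1 encodes GLUT1, the main transporter of most embryonic cells, Slc2a3 encodes GLUT3, a transporter of high affinity found in neurons and the early embryo, and Slc2a8 encodes GLUT8, which sits mostly on inner membranes. Slc2a3 was at 36.9, 96.5, 25.3 and 55.9 CPM in open neural tubes 9, 10, 13 and 14, and at 125, 276, 160 and 247 CPM in protrusions 1, 2, 3 and 4, an order of libraries kept in all lists of values here. Group means were 53.6 ± 31.2 and 201.7 ± 71.1 CPM (SD, n = 4 each), with a log2 fold change of 1.86 ± 0.42 (SE) and an edgeR adjusted p of 0.0740. This was the smallest adjusted p of the 30 members, and the gene passed with DESeq2 (adjusted p = 0.00112) and limma-voom (adjusted p = 0.0286).

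Slc2a1 was the more abundant transporter in every library. It was at 452, 618, 172 and 517 CPM in open neural tube and 396, 708, 1036 and 646 CPM in protrusions. The attached protrusions lay above every open neural tube and the separated one within their range, and the log2 fold change of 0.57 ± 0.36 (SE) did not pass (edgeR adjusted p = 0.521). Slc2a8 lay between 0.592 and 10.03 CPM in open neural tube and between 0.654 and 24.5 CPM in protrusions, with the groups overlapping. Summed, the 3 transporters stood at 497 ± 216 CPM in open neural tube and 909 ± 292 CPM in protrusions (SD, n = 4 each), and the separated protrusion with 521 CPM lay inside the open neural tube range of 207 to 719 CPM.

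In upper glycolysis the abundant enzymes overlapped between the groups, and some less abundant isozymes stood higher in protrusions, without passing the test. The 10 genes summed to 3345 to 6082 CPM in open neural tube and 2934 to 4795 CPM in protrusions. Tpi1, triose phosphate isomerase, gave 52.8% to 74.0% of that sum. It was at 2423, 2618, 2474 and 4271 CPM in open neural tube and 1654, 1933, 2101 and 2723 CPM in protrusions (log2 −0.58 ± 0.23 SE, edgeR adjusted p = 0.255). Protrusions 1, 2 and 3 lay below all open neural tubes and protrusion 4 among them. Gpi1, which turns glucose 6-phosphate into fructose 6-phosphate, showed a like difference of −0.58 ± 0.26 (SE) with overlapping groups, at 502 ± 178 CPM in open neural tube and 356 ± 59.8 CPM in protrusions (SD, n = 4 each; edgeR adjusted p = 0.321).

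Hexokinase traps glucose as glucose 6-phosphate. Hk2, the inducible form, was more abundant than Hk1 in every library, at 156, 190, 93.7 and 128 CPM in open neural tube and 88.0, 69.4, 188 and 127 CPM in protrusions. Hk1, the form of most adult tissues including brain, was at 5.63, 0.353, 4.98 and 7.76 CPM and at 11.3, 29.1, 7.96 and 33.1 CPM. The groups did not overlap for Hk1, although the highest open neural tube and the lowest protrusion lay close together. Its log2 fold change was 2.03 ± 0.86 (SE, edgeR adjusted p = 0.287), and that of Hk2 was −0.37 ± 0.30 (SE, adjusted p = 0.633).

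Phosphofructokinase, a main control point of glycolysis, is a tetramer of liver (Pfkl), muscle (Pfkm) and platelet (Pfkp) subunits. Pfkl was the most abundant, at 341 ± 133 CPM in open neural tube and 371 ± 148 CPM in protrusions (SD, n = 4 each). Pfkm was at 5.63, 14.8, 36.7 and 22.4 CPM in open neural tube and 44.5, 81.0, 71.5 and 80.4 CPM in protrusions. All protrusions stood above all open neural tubes, with a log2 fold change of 1.70 ± 0.50 (SE, edgeR adjusted p = 0.122; DESeq2 adjusted p = 0.0198). Pfkp lay between 39.2 and 95.9 CPM and between 56.1 and 100.6 CPM. Pfkfb3, which makes the activator fructose 2,6-bisphosphate, was at 13.3 to 113 CPM in open neural tube, with open neural tube 9 the highest, and at 28.3 to 51.2 CPM in protrusions.

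The aldolases cut fructose 1,6-bisphosphate. Aldoa, the common form, lay between 164 and 665 CPM in open neural tube and between 395 and 850 CPM in protrusions, with overlapping groups (log2 0.28 ± 0.40 SE, edgeR adjusted p = 0.813). Aldoc, the brain form, was at 11.6, 7.23, 6.48 and 18.9 CPM and at 36.6, 21.9, 17.8 and 83.2 CPM. Protrusion 3 lay just below open neural tube 14, and the other protrusions above all open neural tubes. The log2 fold change of Aldoc was 1.78 ± 0.58 (SE, edgeR adjusted p = 0.167; DESeq2 adjusted p = 0.0472).

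In lower glycolysis the abundant genes Pgam1 and Pkm2 overlapped between the groups and did not pass the test, and their step's summed level did not overlap. This sum was not tested. Over the 6 genes, of which Gapdh and Eno1 gave no reads, the sum was 5155, 2953, 1577 and 4281 CPM in open neural tube and 6401, 6520, 6233 and 5621 CPM in protrusions. All protrusions stood above all open neural tubes, and their spread was smaller, with 3492 ± 1565 CPM and 6194 ± 400 CPM (SD, n = 4 each). Pgam1 gave 63.0% to 94.0% of the sum.

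Pgam1, phosphoglycerate mutase, was at 4800, 2401, 1100 and 3437 CPM in open neural tube and 6016, 4872, 3925 and 4288 CPM in protrusions. Open neural tube 9 lay among the protrusions and open neural tube 13 far below, and the log2 fold change of 0.62 ± 0.38 (SE) did not pass (edgeR adjusted p = 0.499). Pgk1, phosphoglycerate kinase, which regains the first ATP, was at 9.38, 0.176, 8.17 and 23.2 CPM and at 25.2, 66.4, 84.2 and 64.9 CPM. The separated protrusion lay just above the highest open neural tube and the attached ones well above it (log2 2.43 ± 0.87 SE, edgeR adjusted p = 0.201; DESeq2 adjusted p = 0.0416). Open neural tube 10 held 1 read of Pgk1, an enzyme of every cell. Eno2, the neuronal enolase, was at 8.19 ± 4.70 CPM and 4.38 ± 1.29 CPM (SD, n = 4 each), with overlapping groups.

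Pyruvate kinase makes pyruvate and the last ATP of glycolysis. The gene listed as Pkm2 encodes both the M1 and the M2 form, and its tag lies at the 3′ end that both share, so the forms cannot be told apart. It was at 337, 539, 460 and 819 CPM in open neural tube and 356, 1579, 2219 and 1262 CPM in protrusions. The 3 attached protrusions stood above every open neural tube, and the separated protrusion lay at the lower end of the open neural tubes. With all libraries the log2 fold change was 1.22 ± 0.45 (SE, edgeR adjusted p = 0.222). Without the separated protrusion the log2 fold change of Pkm2 was 1.54 (edgeR adjusted p = 0.0444). Pkm2 was the only member that passed in that fit, where 1.5% of all genes tested did. The library left out was the lowest protrusion for Pkm2, so that call adds no support. A fit added after the data were seen also leaves out open neural tube 13. In it Pkm2 had a log2 fold change of 1.48 and missed the threshold (edgeR adjusted p = 0.0557).

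**Figure D3:**
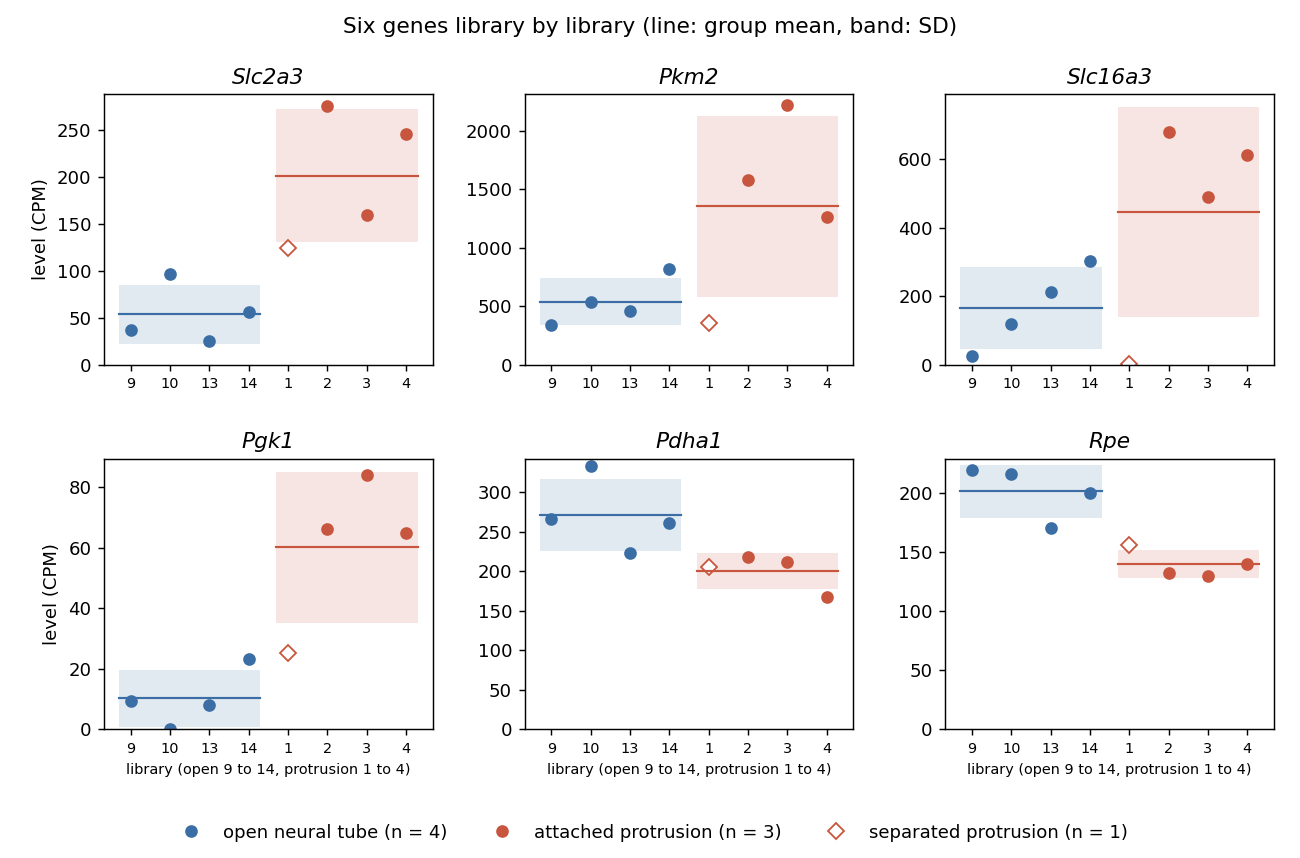
Level in CPM of Slc2a3, Pkm2, Slc16a3, Pgk1, Pdha1 and Rpe in each library (blue open neural tubes 9, 10, 13 and 14, red protrusions 1 to 4, open diamond the separated protrusion), with group mean and SD. Slc2a3 and Pgk1 are higher and Pdha1 and Rpe lower in all 4 protrusions, while Pkm2 and Slc16a3 are high in the 3 attached protrusions and not in the separated one.

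Lactate is made by lactate dehydrogenase, a tetramer of A and B subunits, and leaves the cell through monocarboxylate transporters. Ldha was at 13305, 12176, 6085 and 13883 CPM in open neural tube and 9251, 10791, 8729 and 16071 CPM in protrusions. The groups overlapped throughout, with a log2 fold change of −0.10 ± 0.29 (SE, edgeR adjusted p = 0.922). Ldhb had 0 reads in the 4 open neural tubes, which allows a level of up to 0.180 to 0.529 CPM, by library, on counting error alone, and 12, 26, 54 and 6 reads in protrusions, 0.721 to 4.72 CPM. It was too rare to be tested.

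The transporter Slc16a3 differed most within the protrusions. Slc16a3 encodes MCT4, the lactate exporter of strongly glycolytic cells, and Slc16a1 encodes MCT1, which carries lactate and pyruvate in either direction. Slc16a3 was at 24.98, 117, 213 and 303 CPM in open neural tube and 2.94, 679, 488 and 614 CPM in protrusions. The 3 attached protrusions stood above all open neural tubes and the separated protrusion below all of them. Over all libraries the log2 fold change was 1.35 ± 1.07 (SE, edgeR adjusted p = 0.628), and without the separated protrusion it was 1.77 (edgeR adjusted p = 0.177). Slc16a1 was at 274, 186, 265 and 239 CPM and at 390, 224, 240 and 252 CPM. The separated protrusion was the highest of all 8 libraries for Slc16a1 and the lowest for Slc16a3.

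Genes of pyruvate entry into the mitochondrion differed in both directions, none past the edgeR threshold. Pdha1, the catalytic alpha subunit of pyruvate dehydrogenase, was at 266, 333, 223 and 261 CPM in open neural tube and 205, 217, 212 and 167 CPM in protrusions. All protrusions stood below all open neural tubes by a small margin, with a log2 fold change of −0.52 ± 0.17 (SE, edgeR adjusted p = 0.167). Pdhb had 0, 0, 16 and 0 reads in open neural tube and 16, 68, 146 and 78 reads in protrusions, 2.62 to 12.8 CPM there. Its fitted log2 fold change of 4.82 ± 1.63 (SE, edgeR adjusted p = 0.180) became 9.11 without open neural tube 13 (edgeR adjusted p = 0.0531), the only open neural tube with reads, so it is no measure of size. It also belongs to a gene whose predicted tag is shared and whose only CATG lies 930 bases from the transcript end.

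The pyruvate dehydrogenase kinases Pdk1 and Pdk3 had fitted differences of opposite sign, and neither passed the test. Pdk1, the form induced by low oxygen, was at 39.4, 60.2, 30.9 and 34.02 CPM in open neural tube and 30.9, 26.2, 27.6 and 21.99 CPM in protrusions, open neural tube 13 and protrusion 1 being equal to 3 digits. Pdk3 was at 25.9, 2.999, 31.5 and 18.5 CPM and at 51.04, 40.1, 47.1 and 55.8 CPM, with all protrusions above all open neural tubes. The log2 fold changes were −0.70 ± 0.30 for Pdk1 and 1.18 ± 0.57 for Pdk3 (SE; edgeR adjusted p = 0.285 and 0.360).

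The summed level of the pentose phosphate genes was close in the 2 groups. It was 903 ± 104 CPM in open neural tube and 904 ± 75.2 CPM in protrusions (SD, n = 4 each), a log2 ratio of means of 0.0019. In the oxidative branch, G6pdx, glucose 6-phosphate dehydrogenase, which makes the first NADPH, was at 8.47 to 12.0 CPM in open neural tube and 8.22 to 9.65 CPM in protrusions. Pgls, the lactonase that follows, lay at 261 to 301 CPM and at 245 to 425 CPM, with the separated protrusion the highest. Pgd, which makes the second NADPH, had 1, 0, 110 and 0 reads in open neural tube and 24, 109, 158 and 108 reads in protrusions, and its log2 fold change of 2.62 ± 1.62 (SE) did not pass (edgeR adjusted p = 0.507). Open neural tube 13 lay above the separated protrusion for Pgd. A fit without both of these libraries was added after the data were seen, and Pgd was the only member past the threshold in it (edgeR adjusted p = 0.0391), where 1.88% of all genes tested were. The 3 remaining open neural tubes held 1 read of Pgd together, so the gene entered that fit through the protrusions alone, and neither the call nor the fitted log2 fold change of 7.97 supports a difference.

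In the non-oxidative branch, Rpe, ribulose phosphate epimerase, was lower in every protrusion. It was at 220, 216, 170 and 200 CPM in open neural tube and 156, 133, 130 and 140 CPM in protrusions. Replicates lay close together, at 201 ± 22.5 and 140 ± 11.8 CPM (SD, n = 4 each), and the log2 fold change of −0.61 ± 0.17 (SE) did not pass with edgeR (adjusted p = 0.105) and passed with DESeq2 (adjusted p = 0.0217). Tkt, transketolase, was at 249 ± 27.0 and 274 ± 40.0 CPM, and Taldo1, transaldolase, at 156 ± 49.7 and 153 ± 25.9 CPM (SD, n = 4 each). Their log2 fold changes were 0.05 ± 0.16 and −0.10 ± 0.23 (SE; edgeR adjusted p = 0.934 and 0.892). Rpia, the isomerase that makes ribose 5-phosphate, had 9 reads in open neural tube 13, 0 in the other open neural tubes and 1 to 4 reads in each protrusion.

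The share of 1 gene among genes of the same step does not depend on how libraries are scaled. Such shares were compared by exact permutation tests over the libraries (2-sided, smallest possible p = 0.0286), adjusted over 10 shares, of which that of Eno1 was void at 0 reads. None of the 10 passed after adjustment, but at least 6 would have had to reach the smallest possible p for any to pass, so this says little. The shares of Pdk1 and Ldha reached that p. Pdk1 made up 60.4%, 95.3%, 49.6% and 64.8% of the reads of Pdk1 and Pdk3 in open neural tube and 37.7%, 39.5%, 37.0% and 28.3% in protrusions. The groups did not overlap, at 67.5% ± 19.6 and 35.6% ± 5.01 (SD, n = 4 each; exact permutation p = 0.0286, adjusted p = 0.143). Pdk3 is 1 of the low-level members above, with 17 reads in open neural tube 10. The part of the gap in values at 0 in this share was not tested. For Ldha the share was 100% in open neural tubes, where Ldhb had no reads, and 99.95% to 99.996% in protrusions, which restates the 0 reads of Ldhb.

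Slc2a1 made up 82.9% to 92.3% of the reads of the 3 transporters in open neural tubes and 71.1% to 84.9% in the protrusions (exact permutation p = 0.0571, adjusted p = 0.143; n = 4 each). Pfkm made up 1.85% to 11.6% of phosphofructokinase reads in open neural tubes and 11.3% to 18.0% in the protrusions (exact permutation p = 0.0571, adjusted p = 0.143; n = 4 each). The ranges overlapped in both sets. Slc16a1 made up 99.3% of the reads of Slc16a1 and Slc16a3 in the separated protrusion, 24.8% to 32.9% in the attached ones and 44.1% to 91.7% in open neural tube.

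**Figure D4:**
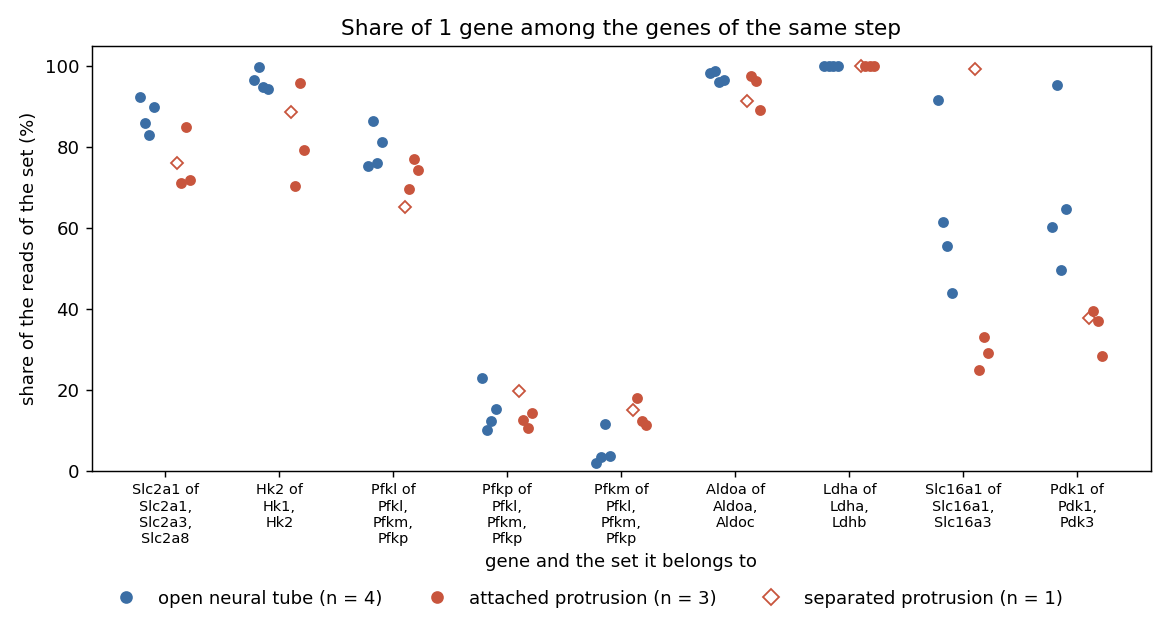
Share in percent of 1 gene among the reads of the genes named under it, in every library, for 9 of the 10 shares (Eno1 had 0 reads). The share of Pdk1 is lower in all 4 protrusions (28.3% to 39.5%) than in the open neural tubes (49.6% to 95.3%), and the separated protrusion (99.3%) lies far from the attached ones for Slc16a1.

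The separated protrusion was 1 library, so its difference from the 3 attached ones has no replicate check. It stood at least 4-fold below their mean for 4 of the 30 tested members, where 8.52% of all genes tested did, and at least 4-fold above it for 0, where 1.11% of all genes did. The 4 were Slc16a3, 202 times lower than the attached mean of 594 CPM, Slc2a8, 21.2 times lower on 4 reads, Pkm2, 4.74 times lower than the attached mean of 1687 CPM, and Pdhb, 4.06 times lower. The separated protrusion held 18 reads of Slc16a3. Streak markers were also lowest in the separated protrusion, at 309.9 CPM against 1122 to 1413 CPM in the attached ones. The sum of the neural progenitor list was highest there, at 2512 CPM against 1528 to 1686 CPM. The part of either list in these differences was not tested.

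Other genes of glucose metabolism were taken from 8 further lists of 91 symbols, 88 of them in the files. Of 52 that could be tested 0 passed with edgeR, where 0.607% of all genes tested did. Log2 fold changes lay above 0 for 26 and below 0 for 26, against 53.7% above 0 over all genes tested. An unadjusted p under 0.05 was reached by 7, near the background of 15.3%. DESeq2 called 3 of the 52 (Hkdc1 and Pygb among them), where it called 7.2% of all genes tested. Limma-voom called 1 (Pfkfb1, named after its values were seen), where it called 3.35%. Pfkfb1 had 0, 0, 38 and 0 reads in open neural tube and 19, 47, 101 and 81 reads in protrusions (edgeR adjusted p = 0.381). The protrusions, where it is high, carried it through the filter on low counts, so that call supports nothing. Among other transporters, Slc2a10 and Slc2a12 lay at 0 to 3.76 CPM and 0 to 4.02 CPM, and Slc2a4, the insulin-responsive GLUT4, at 0 to 12.0 CPM with open neural tube 10 the highest. The remaining transporters of that list had at most 4.25 CPM in any library. Hkdc1, a hexokinase relative, was at 9.28, 20.5, 1.56 and 12.7 CPM in open neural tube and 1.80, 0.430, 0.962 and 0.721 CPM in protrusions (log2 −3.55 ± 1.04 SE, edgeR adjusted p = 0.118; DESeq2 adjusted p = 0.00326). Open neural tube 13 lay just under protrusion 1, and the other open neural tubes above all protrusions. Of the protrusions only protrusion 1 reached the filter level of 1.198 CPM. Hkdc1 was thus tested through the open neural tubes, where it is high, and its DESeq2 call supports nothing.

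Bpgm, which makes 2,3-bisphosphoglycerate, was at 4.44, 6.70, 22.3 and 2.63 CPM in open neural tube and 4.25, 43.3, 40.3 and 38.1 CPM in protrusions (log2 1.69 ± 0.81 SE, edgeR adjusted p = 0.361). It was high in the 3 attached protrusions. In the fit without the separated protrusion and open neural tube 13, added after the data were seen, its log2 fold change was 3.07 (edgeR adjusted p = 0.0295). There 1.88% of all genes tested passed. For Bpgm the libraries left out were the lowest protrusion and the highest open neural tube, so that call does not support a difference. The most abundant gene of that list, Minpp1, a phosphatase of inositol phosphates that also acts on 2,3-bisphosphoglycerate, overlapped between the groups. Around pyruvate and lactate, Bsg, the partner that brings monocarboxylate transporters to the membrane, was at 1920 ± 397 and 1661 ± 174 CPM, and Emb, a partner of the same kind, at 380 ± 65.1 and 225 ± 100.1 CPM (SD, n = 4 each). The log2 fold change of Emb was −0.87 ± 0.26 (SE, edgeR adjusted p = 0.133), with protrusion 3 among the open neural tubes. In gluconeogenesis, Pck2, the mitochondrial PEP carboxykinase, and G6pc3, a glucose 6-phosphatase, had log2 fold changes of 0.65 ± 0.33 and −0.55 ± 0.26 (SE; edgeR adjusted p = 0.395 and 0.354). Prps1 and Prps2, which turn ribose 5-phosphate into PRPP, had log2 fold changes of 0.17 ± 0.45 and −0.04 ± 0.39, and Shpk, sedoheptulokinase, of −0.65 ± 1.69 (SE; edgeR adjusted p = 0.913, 0.977 and 0.910).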

How the data were processed

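SOLiD SAGE libraries were made from 7 to 12 ng of total RNA each, per the labels' protocols. The authors deposited 1 file of whole-number counts per gene symbol for each library, with no normalization, and mm9 is the genome build in the submitters' processing notes. Mapper, strand use and the handling of tags shared between genes are not given in these sources. CPM values are counts divided by the library's total and multiplied by 1000000, computed here. Groups follow the source names, and the protrusions were numbered in the order of the samples.

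Differences were fitted in R 4.3.3 with edgeR 4.0.16 (filterByExpr with minimum count 10, TMM factors, robust quasi-likelihood F test, 2-sided, Benjamini-Hochberg over all genes, threshold 0.05). Standard errors were derived from the F statistic. Alternatives used DESeq2 1.42.0 and limma 3.58.1. The scripts were tested on simulated data. Tags were predicted from GENCODE M21, 25 bases from the last CATG. That build differs from mm9, so no coordinates are given.

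All members are named. Of the other lists, the text names genes past the threshold, the 2 with the smallest p and the most abundant. The values of 1 gene chosen so are not reported here. The members and lists were chosen with earlier results of these data known.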

Additional observations from a re-analysis of the deposited data

Results flagged for a closer look

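Within groups of 4 libraries, 9 values lay far from the other 3 by Dixon's test, of 92 groups of values examined, and chance flags about 1 group in 20. In open neural tube 13, 4 of them were found, Pdhb at 0.961 CPM, Pgd at 6.604 CPM and Rpia at 0.540 CPM, each above open neural tubes with at most 1 read, and Tkt at 209 CPM, below the others. Tpi1 at 4271 CPM in open neural tube 14 lay above its group. In protrusions, Pfkp at 100.6 CPM and Pfkfb3 at 51.2 CPM lay above the others in protrusion 4. In the separated protrusion Slc16a1 at 390 CPM lay above its group, as did its share of 99.3% among the reads of Slc16a1 and Slc16a3. Open neural tube 13 was the deepest library, at 16655583 reads, and the part of depth in its values was not tested.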

How the results depend on the processing

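Of the 49 tested genes that the naming rule takes, under 19 other settings (919 pairs of gene and setting), 859 values kept their direction and side of the threshold, 17 kept their direction and newly passed, and 43 turned direction, in 13 genes with main log2 fold changes of at most 0.65 in size. Over all genes, 67 passed with edgeR, 103 with upper-quartile factors, 157 with a filter of 20 CPM in 4 libraries (5590 genes tested), 795 with DESeq2, 370 with limma-voom, 189 with sample weights and 36 with protrusions 1 and 2 summed. Leaving out 1 library gave 1 to 172 genes, lowest without open neural tube 9 and highest without protrusion 1, and leaving out protrusion 1 and open neural tube 13 together gave 211. The count of members called was 6 with DESeq2, 2 with limma-voom, 2 with sample weights, 0 to 1 with 1 library left out and 1 with both left out. For the further genes of glucose metabolism it was 3, 1, 1, 0 and 2. The cause was not tested. Limma-voom moved the median log2 fold change of all genes from 0.08 to 0.35. The log2 ratio of the summed transporters was 1.88 without Slc2a1.

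With limma-voom Pfkfb3 was at 0.054, Shpk at 2.24 and Gyg at −0.012 (log2). With sample weights Ldha was at 0.035, Slc16a1 at −0.047, Pgls at −0.021, Prps1 at −0.031, Prps2 at 0.13, Shpk at 2.09 and Gyg at −0.0083. Prps2 was at 0.053 without scaling factors and at 0.053 after thinning, and with protrusions 1 and 2 summed Pgls was at −0.023 and Gyg at −0.042. Without protrusion 1 and open neural tube 13 Pfkp was at −0.037, Slc16a1 at −0.059, Pgls at −0.14 and Prps2 at 0.14. With 1 library left out the ranges were −0.20 to 0.33 for Pfkl, −0.19 to 0.38 for Pfkp, −0.75 to 0.61 for Pfkfb3, −0.33 to 0.071 for Ldha, −0.12 to 0.25 for Slc16a1, −0.110 to 0.25 for Pgls, −0.031 to 0.13 for Tkt, −0.22 to 0.14 for Taldo1, −0.019 to 0.35 for Prps1, −0.20 to 0.33 for Prps2, −1.06 to 1.15 for Shpk, −0.33 to 0.027 for Mgea5 and −0.17 to 0.31 for Gyg. The share of Pfkp ranged from −2.78 to 1.65 percentage points. No paired analysis was possible because the labels give no replicate number or other link that ties a protrusion to an open neural tube. At 0.180 to 0.529 CPM for 3 reads, Rpia lay near the limit of detection. Ldhb had 0 reads in open neural tube and lay above that limit in protrusions, at 0.721 to 4.72 CPM.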

Other observations

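Glycogen is the store of glucose in the embryo, and of the 52 further genes tested, Pygb had the smallest adjusted p. Pygb, the brain form of glycogen phosphorylase, was at 131, 143, 65.1 and 94.9 CPM in open neural tubes 9, 10, 13 and 14 and at 61.2, 43.3, 51.003 and 55.0 CPM in protrusions 1 to 4. All protrusions stood below all open neural tubes, with a log2 fold change of −1.13 ± 0.27 (SE, edgeR adjusted p = 0.0811; DESeq2 adjusted p = 0.00798). Without protrusion 1 and open neural tube 13, a setting added after the data were seen, it was −1.39 (edgeR adjusted p = 0.0414). In that fit 1.88% of all genes tested passed. For Pygb the libraries left out were the highest protrusion and the lowest open neural tube, so that call adds no support. Gyg, the glycogenin that primes the chain, was at 131 ± 59.0 and 142 ± 32.5 CPM (SD, n = 4 each). Of 8 glycogen genes tested 0 passed with edgeR, 3 had an unadjusted p under 0.05 (15.3% of all genes tested) and DESeq2 called 2, Pygb among them (7.2% of all genes tested). In the edgeR fit 6 log2 fold changes lay above 0 and 2 below, with a median of 0.37, where 53.7% of all genes tested lay above 0 with a median of 0.08.

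Of 9 genes tested of the hexosamine and polyol routes, which high glucose is known to feed, 0 passed with edgeR or DESeq2 and 0 had an unadjusted p under 0.05 with edgeR. Over all genes tested, 0.607% passed with edgeR and 7.2% with DESeq2, and 15.3% had an unadjusted p under 0.05 with edgeR. With 9 genes, counts of 0 say little about these routes. Ogt and Mgea5, which add and remove O-GlcNAc on proteins, had log2 fold changes of 0.36 ± 0.31 and −0.24 ± 0.23 (SE; edgeR adjusted p = 0.660 and 0.697). Of 9 regulators of glucose use tested 0 passed with edgeR or DESeq2, and 2 had an unadjusted p under 0.05 with edgeR, where 15.3% of all genes tested did. Mycn, a growth-promoting transcription factor of neural progenitors, was at 532 ± 204 CPM in open neural tube and 291 ± 89.2 CPM in protrusions (SD, n = 4 each; log2 −0.97 ± 0.33 SE, edgeR adjusted p = 0.186). Mlxip, a glucose-sensing transcription factor, was at 198 ± 44.1 and 141 ± 24.1 CPM (SD, n = 4 each; log2 −0.57 ± 0.21 SE, edgeR adjusted p = 0.224).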
